A study of Drosophila melanogaster with 8 samples.

Results

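The fourth chromosome of Drosophila melanogaster, also called the dot chromosome, is the smallest chromosome of the fly, and 51 of its genes were followed in ovary RNA. They were taken by name from a list of genes of chromosome 4. All 51 were found among the 15682 genes of the count tables, 2 of them (Thd1 and Arf102F) through an older symbol. The annotation places each of the 51 on chromosome 4. It places 91 genes of the tables there, 78 of them protein-coding, which leaves 40 other genes of the chromosome for comparison.

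The study compared ovaries of flies aged 4 to 6 days in 4 groups of 2 libraries. The piwi mutant carried the alleles piwi1 and piwi2, and its control carried the germline driver nos-GAL4-VP16, a driver that the mutant's label does not list. In the RnpS1 knockdown, a double-stranded RNA against RnpS1 was driven by tj-GAL4, a driver for follicle cells and other somatic cells of the ovary, and a short hairpin RNA against RnpS1 by nos-GAL4-VP16. The RnpS1 control carried both drivers with neither RNA. The comparisons named by the study were the mutant against its control and the knockdown against its control. The labels do not say whether libraries of a group came from separate flies, so the p-values cover only variation among these libraries, which may be technical. Ovaries were sequenced whole, so fewer cells of a type and less RNA per cell cannot be told apart.

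The dot chromosome is unusual because its genes lie within heterochromatin. Most of its length is packed with transposon remnants and repeats and carries HP1a and methylated histone H3 lysine 9, marks that are linked to silencing elsewhere, yet many of its genes are active. The methyltransferase Eggless (egg) and the protein Pof (named for its painting of this chromosome) bind this chromosome, and Pof is known to support expression of its genes. Piwi is a nuclear Argonaute protein that guides this kind of packing to transposons, and RnpS1 is a partner of the exon junction complex, which marks spliced transcripts and is needed for correct splicing of introns in heterochromatin. The genes of the chromosome include regulators of development, such as the Hedgehog effector ci, the Wnt effector pan and the eye genes ey and toy, beside neuronal and housekeeping genes.

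Gene counts per library lay between 37426999 and 86692865, and the targeted genes were checked first. Transcripts of piwi were at 202 and 193 CPM (the gene's count scaled to a common library total) in the mutant and 316 and 312 CPM in its control (log2FC −0.83, SE 0.135, adjusted p = 0.0197). Transcripts of RnpS1 were at 8.75 and 3.78 CPM in the knockdown and 45.00 and 39.6 CPM in its control (log2FC −2.88, SE 0.367, adjusted p = 0.0213). Transcripts of piwi also fell in the knockdown (log2FC −1.24, SE 0.136, adjusted p = 0.0162). Of 10 listed germline markers 8 were found in the count tables, and these were present in all 8 libraries. Their sum was lowest in the mutant, at 3019.9 and 3312 CPM, against 3817 to 4293 CPM in the other 6 libraries. In the piwi comparison 3 of the 8 markers were called lower and 1 higher, where 4.78% and 6.21% of all genes were. The median log2 fold change of these markers was −0.35. The 15 follicle cell and eggshell markers summed to 2853 and 4194 CPM in the mutant and 13980 and 10841 CPM in its control. Of these markers 2 were called lower, where 4.78% of all genes were. All 15 were negative, with a median of −2.99. In the RnpS1 groups they summed to 4145 and 14948 CPM in the knockdown and 12240 and 22464 CPM in its control, so that knockdown replicate 1 stood apart. None of the 15 was called there, all were negative, and the median was −0.999. Each log2 fold change (log2FC), with its standard error (SE), was estimated in edgeR, whose quasi-likelihood p-values were adjusted over 10434 genes by the Benjamini-Hochberg method, and a gene is called where the adjusted p is under 0.05. The fold changes include TMM scaling factors, 1.06 and 1.05 for the mutant and 0.943 and 0.951 for its control, so a ratio of CPM values in this comparison lies above the fitted fold. With library totals alone as the scale, the all-gene median log2FC was 0.17 rather than 0.01 in the piwi comparison and 0.12 rather than 0.01 in the RnpS1 comparison.

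Together the 51 genes made up a small part of the ovary's gene counts in every group. They took 0.815% ± 0.00345 (SD, n = 2) in the piwi mutant, 0.773% ± 0.0525 in its control, 0.765% ± 0.0316 in the RnpS1 knockdown and 0.849% ± 0.0711 in its control. No gene of the 51 was at 0 in any library, and the lowest count was 2. All 51 passed the filter on low counts. The other 40 genes of the chromosome included 32 that passed it.

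The genes spanned a range from housekeeping to nearly silent. Per length of exon, as RPKM (CPM per kilobase of exon) averaged over the 4 control libraries, 26 genes stood at 10 or more, 9 between 1 and 10, and 16 under 1. The highest was ATPsynbeta (FBgn0010217), the catalytic beta subunit of mitochondrial ATP synthase, at 589.7 ± 30.1 RPKM (SD, n = 4). It was followed by Rad23 (FBgn0026777), a shuttle factor of DNA repair and protein turnover, at 190.4 ± 36.7 RPKM, and by the small GTPase Arf102F (FBgn0013749) at 136 ± 14.2 RPKM. The translational repressor 4E-T (FBgn0052016) at 102 ± 21.7 RPKM, the microRNA effector gw (FBgn0051992) at 99.2 ± 13.2 RPKM and the cytoskeletal adaptor Ank at 98.3 ± 9.64 RPKM came next, and these 3 did not differ beyond their spread. At the other end, onecut stood at 0.0643 ± 0.0736 RPKM and Actbeta at 0.0597 ± 0.0438 RPKM, and the SD of each was of the size of its mean. All 6 genes of chromatin, transcription and DNA repair and all 3 RNA regulators stood at 10 RPKM or more, against 1 of 12 transcription factors and 2 of 9 synaptic and neuronal genes.

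**Figure D1:**
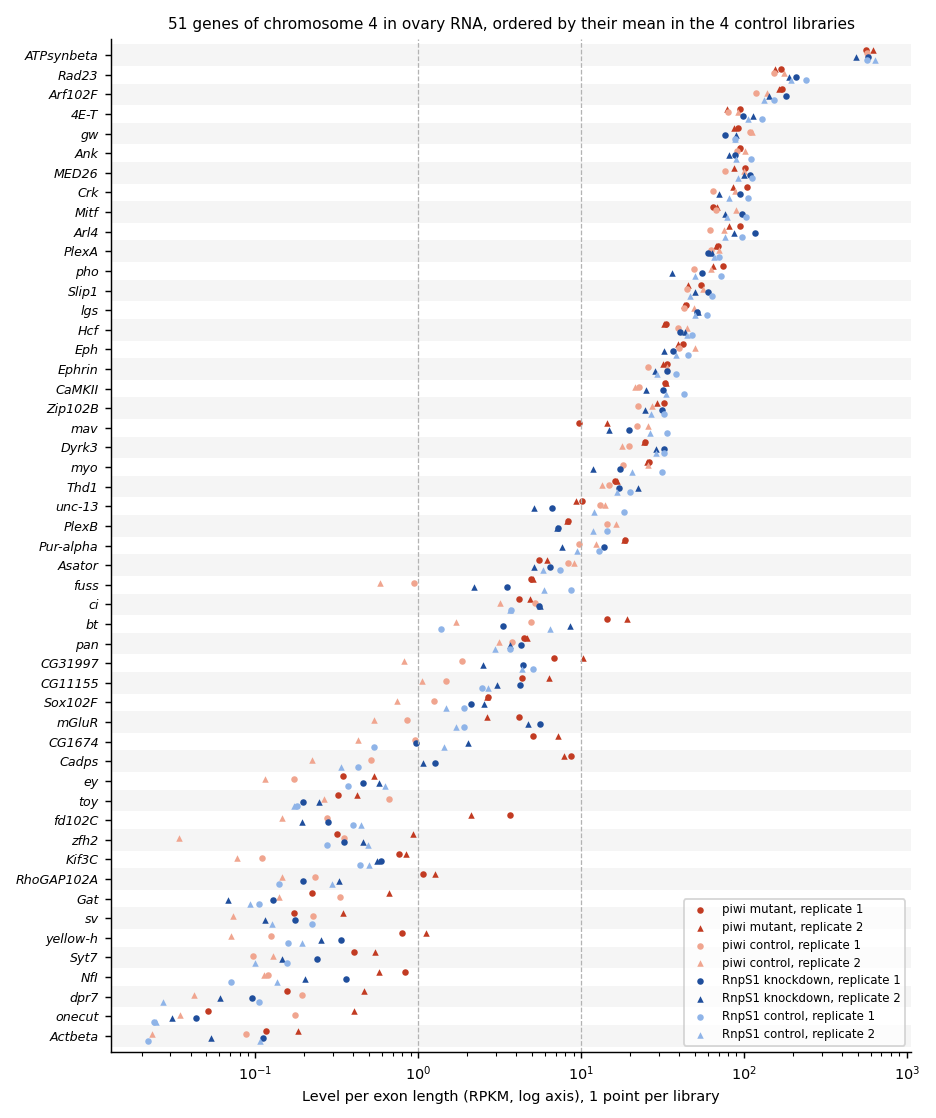
Level of each of the 51 genes in every library, in RPKM on a log axis, with 1 point per library and genes ordered by their mean over the 4 control libraries. The dashed lines mark 1 and 10 RPKM; among genes above 10, unc-13, mav and PlexB spread between groups, and below it the piwi mutant points of genes such as Cadps, fd102C and yellow-h lie to the right of all others.

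In the piwi mutant, 11 of the 51 genes rose, 5 fell and 35 did not pass. Cadps, a priming factor of dense-core vesicles, rose the most, followed by the forkhead gene fd102C, yellow-h, CG1674, Kif3C, fuss, CG31997, RhoGAP102A, NfI, mGluR and CG11155, with log2FC values from 4.33 down to 1.92. The genes that fell were mav, PlexB, Asator, Hcf and gw, from −1.13 to −0.46. Over all genes tested, 6.21% rose and 4.78% fell, or 11.0% in either direction. The median log2FC of the 51 genes was 0.22, against 0.01 for all genes. In 25 of the 51 genes both mutant libraries lay above both control libraries and in 6 below, where 45.6% and 18.5% of all genes did. Of the 32 other genes of the chromosome, 4 rose and 1 fell, with a median of 0.05.

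Rises lay among the less abundant genes, and falls from the middle of the range upward. All 11 genes that rose were under 10 CPM in both control libraries of the mutant, and none of the 26 genes at 10 RPKM or more rose, while 4 of these fell. Between 1 and 10 RPKM 4 rose and 1, Asator, fell. To sort genes by a level that the piwi comparison does not use, they were divided at 10 CPM in the RnpS1 control, a limit chosen after values were seen. Of 18 genes under that limit 8 rose and 0 fell, with a median log2FC of 1.73. All genes under the limit had a median of 1.35, with 12.7% called higher and 0.974% lower. Of 33 genes at or over it 3 rose and 5 fell, with a median of −0.05. All genes over the limit had a median of −0.13, with 2.16% called higher and 7.16% lower. The rank correlation across the 51 genes between RPKM in the controls and the log2FC was −0.66 (Spearman), a description only, since 2 of the 4 control libraries enter both values and genes share libraries.

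**Figure D2:**
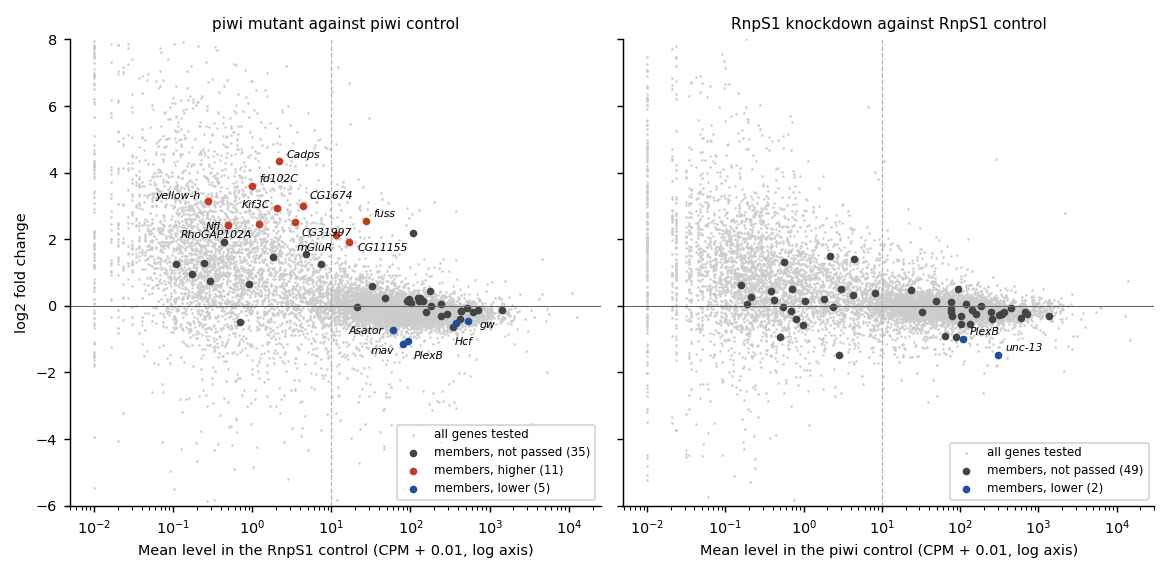
Log2 fold change against the mean level in the control of the other comparison (CPM + 0.01, log axis), left for the piwi mutant and right for the RnpS1 knockdown, with all genes tested in grey and the 51 genes of chromosome 4 in colour; values beyond −6 and 8 are not drawn. Left of the dashed line at 10 CPM the cloud of all genes leans upward in the piwi comparison and 8 of the 11 genes that rose lie there, while all 5 that fell lie to its right.

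Most of these calls were lost in fits that left 1 library out. Leaving out a library of the compared groups leaves 1 in its group, and calls over all genes were lost as well. A lost call therefore does not show that 1 library made it. Among the 16, only Cadps was still called when mutant replicate 1 or control replicate 2 was left out, only Cadps and mGluR when mutant replicate 2 was, and only Cadps, PlexB, fuss, CG11155 and mGluR when control replicate 1 was. Over all genes, 1147 calls became 44 and 73 when mutant replicate 1 or 2 was left out, and 191 and 27 when control replicate 1 or 2 was. Libraries of the other comparison mattered too: without RnpS1 control replicate 1, the calls of NfI, gw and CG31997 were lost (adjusted p = 0.0501, 0.0766 and 0.0559), and without replicate 2, those of gw and CG31997 (0.0729 and 0.0536). Without knockdown replicate 1, NfI was lost (0.0516), and without knockdown replicate 2, NfI and RhoGAP102A (0.0545 and 0.0521). No called gene changed direction under any of these. With library totals in place of TMM, 12 genes were higher and 2 lower, since Hcf (adjusted p = 0.0711), Asator (0.0681) and gw (0.119) no longer passed.

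In the RnpS1 knockdown, 2 of the 51 genes fell, none rose and 49 did not pass. The genes that fell were unc-13, which encodes a priming factor of synaptic vesicles, and PlexB, a receptor for semaphorins. Over all genes, 1.54% were called, 0.863% higher and 0.680% lower. The median of the 51 genes was −0.15, against 0.01 for all genes. With library totals in place of TMM, their median was −0.03 and that of all genes 0.12. At an unadjusted p under 0.05 there were 3 higher and 10 lower, where 1058 and 832 of all 10434 genes were. DESeq2 called 2 higher and 8 lower, where it called 7.13% of 14299 genes in either direction. Of the 26 genes at 10 RPKM or more, 24 had a negative log2FC, with a median of −0.25. Over all genes tested 5097 of 10434 had a negative one, and the share among all genes of that level was not counted. Both knockdown libraries lay below both control libraries in 11 of the 51 genes and above in 11, where 11.4% and 34.2% of all genes did.

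By level in the piwi control, the RnpS1 comparison looked as follows. Of 30 genes at or over 10 CPM, 2 fell, 25 had a negative log2FC and the median was −0.24. All genes of that level had a median of −0.07, with 1.06% called lower and 0.485% higher, and their share of negative values was not counted. Of 21 genes under the limit none was called, and their median was 0.20, where all genes of that level had a median of 0.62, with 1.46% called higher and 0.0743% lower. Follicle cell and eggshell markers were lower as well in this comparison, most in knockdown replicate 1, and their part in these values was not tested. Both calls were lost in several fits that left 1 library out, which does not show that 1 library made them. PlexB was lost without piwi mutant replicate 1 (adjusted p = 0.0536) or 2 (0.0542), knockdown replicate 1 (0.0905) or RnpS1 control replicate 1 (0.0900). The call of unc-13 held without RnpS1 control replicate 2 only (0.0385). It was lost without piwi mutant replicate 1 (0.0686) or 2 (0.0737), piwi control replicate 1 (0.0582) or 2 (0.0584), knockdown replicate 1 (0.0905) or 2 (0.0722), or RnpS1 control replicate 1 (0.0900). In a fit of these groups alone neither gene passed (0.121 for PlexB and 0.146 for unc-13).

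Among the 12 transcription factors, 3 rose in the piwi mutant (fd102C, fuss and NfI), none fell, and none was called in the knockdown. For this and the later groups by role, the shares of all genes were 6.21% higher and 4.78% lower in the mutant. In the knockdown they were 0.863% and 0.680%. The median of the 12 factors was 1.11 in the piwi comparison and 0.05 in the RnpS1 comparison. fd102C (FBgn0039937), a forkhead gene, was at 8.48 and 4.87 CPM in the mutant and 0.641 and 0.338 CPM in its control (log2FC 3.61, SE 0.567, adjusted p = 0.0178). In the knockdown it was at 0.646 and 0.4499 CPM and in that control at 0.919 and 1.03 CPM (log2FC −0.95, SE 0.519, adjusted p = 0.392). The mutant libraries thus stood apart from the other 6, of which none exceeded 1.03 CPM. NfI (FBgn0042696), the fly member of the nuclear factor I family, was at 3.899 and 2.71 CPM in the mutant and 0.561 and 0.529 CPM in its control (log2FC 2.44, SE 0.576, adjusted p = 0.0428). Its knockdown libraries, at 1.700 and 0.946 CPM, also lay above their controls, at 0.333 and 0.6396 CPM (log2FC 1.33, SE 0.557, adjusted p = 0.273). With 1 library left out at a time, the adjusted p in the piwi comparison lay between 0.0251 and 0.116 for fd102C and between 0.0495 and 0.210 for NfI.

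fuss (FBgn0039932), a member of the Ski and Sno family of transcriptional corepressors, was called for a difference between its changes in the comparisons. It was at 18.4 and 18.9 CPM in the piwi mutant and 3.500 and 2.18 CPM in its control (log2FC 2.56, SE 0.359, adjusted p = 0.0145). The knockdown had it at 13.1 and 8.201 CPM and the RnpS1 control at 32.5 and 22.03 CPM (log2FC −1.47, SE 0.342, adjusted p = 0.0909). The groups did not overlap in either comparison, and the direction was opposite. The difference between the changes passed its own test (log2 difference −4.04, SE 0.495, adjusted p = 0.0232), the only one of the 51 genes to do so, where 0.642% of all genes did, 0.278% higher and 0.364% lower. That of fd102C was larger without passing (−4.56, SE 0.761, adjusted p = 0.0645). DESeq2 called 10 of the 51 lower in this test and 5.59% of all genes. The difference was negative in 41 of the 51, with a median of −0.47, and in 5166 of all 10434 genes, with a median of 0.01. For fuss the controls themselves differed (log2FC 3.24, SE 0.369, adjusted p = 0.0126), with the piwi control the lowest of the 4 groups. Over fits that each left out 1 library, the adjusted p of the difference lay between 0.0496 and 0.0982, and it passed only without RnpS1 control replicate 2. Without piwi control replicate 2 the adjusted p of the difference between the controls was 0.0609, and without each other library that call held. In the piwi comparison the call of fuss was lost without mutant replicate 1 (0.0745) or 2 (0.0684) or control replicate 2 (0.0938).

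The other transcription factors did not pass in either comparison. The Gli-type Hedgehog effector ci (FBgn0004859) was at 23.6 and 27.6 CPM in the piwi mutant and 29.4 and 17.95 CPM in its control, which overlapped (log2FC −0.05, SE 0.238, adjusted p = 0.908). Its level under RnpS1 knockdown was 31.3 and 31.7 CPM against 20.98 and 20.8 CPM (log2FC 0.47, SE 0.238, adjusted p = 0.348), with both knockdown libraries above their controls. The TCF-family Wnt effector pan was at 63.9 and 67.3 CPM in the mutant and 54.1 and 45.1 CPM in its control (log2FC 0.24, SE 0.147, adjusted p = 0.293). Mitf, a basic helix-loop-helix factor known for control of lysosome genes, was the most abundant of the group per length, at 84.7 ± 14.8 RPKM, and its log2FC values were −0.40 and −0.18. Sox102F, a SoxD factor, stood at 1.26 (adjusted p = 0.0590) in the piwi comparison. The paired-box genes ey, toy and sv, the zinc-finger homeodomain gene zfh2 and onecut stayed under 1 RPKM in the controls. Their log2FC values in the piwi comparison were 1.47, −0.47, 0.64, 1.55 and 0.97, each with an adjusted p over 0.1. The libraries within each group were far apart for zfh2, at 3.92 and 11.5 CPM in the mutant and 4.33 and 0.423 CPM in its control, and for onecut, at 0.343 and 2.71 CPM and 1.18 and 0.233 CPM.

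Of the 6 genes of chromatin, transcription and DNA repair, 1 fell in the piwi mutant and none was called in the knockdown, and all 6 log2FC values in the knockdown were negative, with a median of −0.21. Hcf (FBgn0039904), the fly host cell factor, which serves in histone-modifying complexes, was at 272 and 263 CPM in the mutant and 323 and 366 CPM in its control (log2FC −0.52, SE 0.107, adjusted p = 0.0316). The mutant libraries were also below the knockdown, at 329.8 and 355 CPM, and below the RnpS1 control, at 391 and 364 CPM (log2FC −0.26, SE 0.106, adjusted p = 0.269). When each library was left out in turn, the adjusted p in the piwi comparison lay between 0.0311 and 0.182. pho (FBgn0002521), which binds Polycomb response elements, had the largest change of the group in the knockdown without passing, at 131 and 86.6 CPM against 172 and 119 CPM (log2FC −0.53, SE 0.246, adjusted p = 0.312). Those libraries overlapped. In the mutant it was at 178 and 154 CPM against 118 and 150.4 CPM (log2FC 0.15, SE 0.246, adjusted p = 0.712).

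The remaining 4 of that group passed in neither comparison. Rad23 was at 345 and 317 CPM in the mutant and 309.9 and 356 CPM in its control (log2FC −0.17, SE 0.136, adjusted p = 0.428). It was at 424 and 382 CPM in the knockdown and 485 and 392 CPM in that control (log2FC −0.24, SE 0.136, adjusted p = 0.411). The groups overlapped in both comparisons. The Mediator subunit MED26, the Wnt cofactor lgs (the fly BCL9) and the thymine DNA glycosylase Thd1 had log2FC values of −0.06, −0.25 and 0.05 in the piwi comparison and −0.08, −0.19 and −0.01 in the RnpS1 comparison. Thd1 is also the only one of the 51 genes that shares exon bases with another gene on its strand in the annotation, over 3.14% of its exons.

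Of the 3 RNA regulators, 1 fell in the piwi mutant and none was called in the knockdown. gw (FBgn0051992), the GW182 protein through which microRNAs repress their targets, was at 567 and 534 CPM in the mutant and 668 and 692 CPM in its control (log2FC −0.46, SE 0.114, adjusted p = 0.0464). The call was lost under several alternatives, and with 1 library left out the adjusted p lay between 0.0319 and 0.254. The RnpS1 libraries, at 472 and 551 CPM in the knockdown and 538 and 542 CPM in its control, all lay below both piwi control libraries (log2FC −0.19, SE 0.114, adjusted p = 0.431). 4E-T, which binds the cap-binding protein eIF4E and represses translation, was at 348 and 289 CPM in the mutant and 294 and 340.0 CPM in its control (log2FC −0.15, SE 0.157, adjusted p = 0.540), and its sign turned with library totals. In the knockdown it was at 367 and 420.3 CPM against 480.2 and 392 CPM (log2FC −0.26, SE 0.157, adjusted p = 0.439). Pur-alpha (FBgn0022361), a single-stranded nucleic acid binding protein, was at 54.99 and 54.2 CPM in the mutant and 28.5 and 36.3 CPM in its control (log2FC 0.59, SE 0.284, adjusted p = 0.198). Both mutant libraries lay above both controls, although the difference did not pass.

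Of the 7 ligands and receptors, 2 fell in the piwi mutant, 1 fell in the knockdown and none rose. PlexB (FBgn0025740), a semaphorin receptor, was the only gene of the 51 called in the same direction in both comparisons. It was at 58.6 and 57.8 CPM in the mutant and 101 and 114.8 CPM in its control (log2FC −1.05, SE 0.1201, adjusted p = 0.0106). The knockdown had it at 51.2 and 50.1 CPM and the RnpS1 control at 102 and 83.1 CPM (log2FC −0.99, SE 0.1198, adjusted p = 0.0196). The follicle cell and eggshell markers had negative medians in both comparisons too, and their part in these falls was not tested. All 4 control libraries of PlexB lay above all 4 others, and its level was 53.9% and 54.7% of the control in CPM. The difference between the changes was 0.06 (adjusted p = 0.906), and the controls were at −0.24 to each other (adjusted p = 0.294). With 1 library left out, the adjusted p in the piwi comparison lay between 0.0104 and 0.0727, and the call was lost without mutant replicate 1 or 2 or control replicate 2. Its paralog PlexA was at 733 and 712 CPM in the mutant and 671 and 751 CPM in its control (log2FC −0.14, SE 0.106, adjusted p = 0.413). In the knockdown PlexA was at 641 and 673 CPM against 749 and 693 CPM (log2FC −0.25, SE 0.106, adjusted p = 0.281).

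The TGF-beta family ligands of the chromosome are mav, myo and Actbeta. mav (FBgn0039914), known as maverick, was at 26.4 and 39.2 CPM in the mutant and 59.4 and 69.7 CPM in its control (log2FC −1.13, SE 0.233, adjusted p = 0.0321). Its level under RnpS1 knockdown was 53.4 and 40.04 CPM against 90.9 and 72.1 CPM and did not pass (log2FC −0.92, SE 0.231, adjusted p = 0.107). In both comparisons the groups did not overlap. Over fits that each left out 1 library, the adjusted p of its fall in the mutant lay between 0.0342 and 0.160. myo (FBgn0026199), the myoglianin gene, was at 69.1 and 47.2 CPM in the knockdown and 124 and 81.2 CPM in its control (log2FC −0.94, SE 0.264, adjusted p = 0.135), without overlap. In the mutant it was at 104 and 101 CPM and in that control at 71.9 and 102 CPM (log2FC 0.08, SE 0.262, adjusted p = 0.867). Actbeta (FBgn0024913), an activin, was close to the floor, at 0.428 and 0.667 CPM in the mutant and 0.321 and 0.0846 CPM in its control (log2FC 1.29, SE 0.987, adjusted p = 0.3996). The receptor tyrosine kinase Eph and its ligand Ephrin had log2FC values of −0.29 and −0.01 in the piwi comparison and −0.41 and −0.25 in the RnpS1 comparison, none of which passed.

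**Figure D3:**
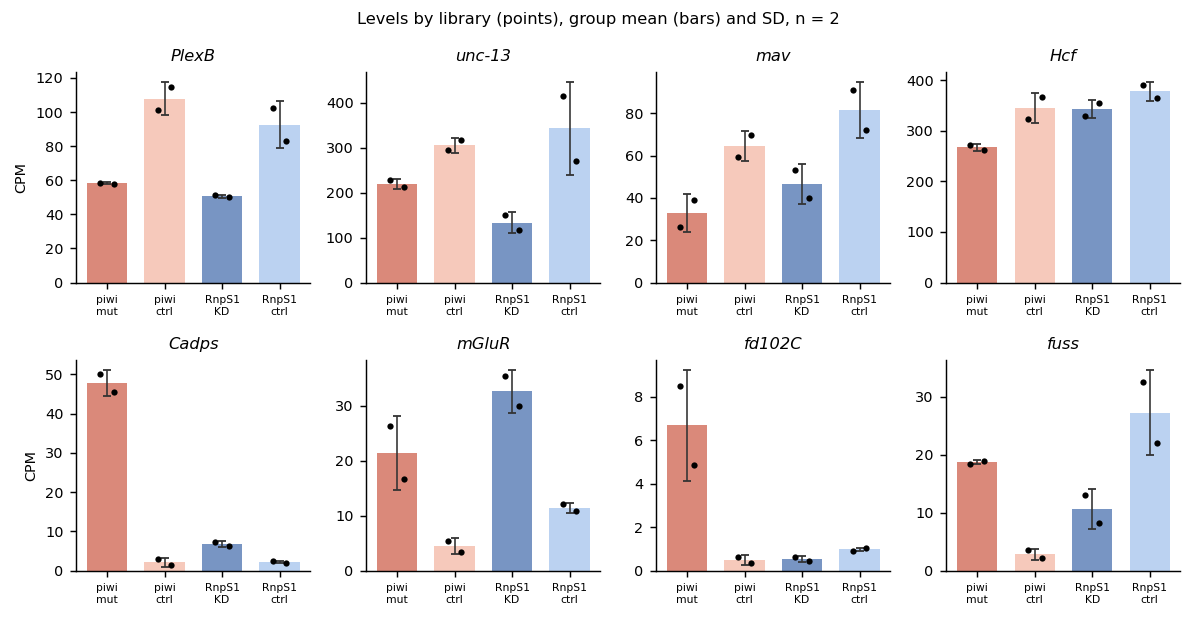
Level in CPM of 8 genes of chromosome 4 in every library (points), with the mean (bars) and SD (n = 2) of each group. PlexB is lower in both the mutant and the knockdown, Cadps and fd102C stand out in the mutant, and fuss is lowest in the piwi control.

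The 9 synaptic and neuronal genes held 4 that rose in the piwi mutant (Cadps, Kif3C, mGluR and CG11155) and 1 that fell in the knockdown (unc-13). Over all genes 6.21% rose in the mutant and 0.680% fell in the knockdown. The median of the 9 genes was 1.91 in the piwi comparison and 0.18 in the RnpS1 comparison. Cadps (FBgn0053653), which primes dense-core vesicles for release, was at 50.2 and 45.5 CPM in the mutant and 2.97 and 1.29 CPM in its control (log2FC 4.33, SE 0.425, adjusted p = 0.00747). Its mean of 47.8 ± 3.33 CPM (SD, n = 2) stood against 2.13 ± 1.19 CPM. It was the only called gene of the 51 to keep its call without each of the 8 libraries in turn, with an adjusted p between 0.0104 and 0.0406, and it kept it under all 7 other settings. In the knockdown Cadps was at 7.26 and 6.16 CPM against 2.45 and 1.94 CPM and did not pass (log2FC 1.49, SE 0.381, adjusted p = 0.110), with both knockdown libraries above both controls. The difference between its changes did not pass (log2 difference −2.84, SE 0.539, adjusted p = 0.0843).

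The other neuronal genes that rose were receptors and a motor. mGluR (FBgn0019985), the metabotropic glutamate receptor, was at 26.3 and 16.7 CPM in the mutant and 5.42 and 3.38 CPM in its control (log2FC 2.13, SE 0.317, adjusted p = 0.0168). In the knockdown it was at 35.4 and 29.9 CPM against 12.1 and 10.8 CPM (log2FC 1.40, SE 0.307, adjusted p = 0.0828), so the knockdown libraries were the highest of all without passing. Without mutant replicate 1 or control replicate 2 its rise in the mutant was lost (adjusted p = 0.0787 and 0.0974). CG11155 (FBgn0039927), an ionotropic glutamate receptor gene, was at 27.7 and 40.8 CPM in the mutant and 9.51 and 6.74 CPM in its control (log2FC 1.92, SE 0.286, adjusted p = 0.0168). It was at 26.98 and 19.5 CPM in the knockdown and 15.8 and 17.3 CPM in that control (log2FC 0.37, SE 0.275, adjusted p = 0.535). Kif3C (FBgn0039925), a kinesin motor gene, was at 3.32 and 3.67 CPM in the mutant and 0.481 and 0.338 CPM in its control (log2FC 2.93, SE 0.438, adjusted p = 0.0168). Its RnpS1 libraries, at 2.58 and 2.45 CPM and 1.93 and 2.17 CPM, all lay between these groups. When each library was left out in turn the adjusted p of the rise lay between 0.0208 and 0.110 for CG11155 and between 0.0248 and 0.111 for Kif3C.

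unc-13 (FBgn0025726) was at 151 and 116 CPM in the knockdown and 416 and 270.0 CPM in its control (log2FC −1.48, SE 0.214, adjusted p = 0.0311). That left 38.9% of the control mean in CPM, with the control libraries far apart. In the piwi mutant it was at 228 and 212 CPM against 294 and 316 CPM and did not pass (log2FC −0.63, SE 0.211, adjusted p = 0.0926). Both mutant libraries lay below all 4 control libraries, and both knockdown libraries below the mutant. CaMKII, the calcium-dependent kinase of synapses, was at 151 and 153 CPM in the mutant, 104 and 97.8 CPM in its control, 146 and 115.1 CPM in the knockdown and 196 and 153 CPM in that control, and passed in neither comparison (0.43 and −0.54). The calcium sensor Syt7, the immunoglobulin-domain gene dpr7 and the GABA transporter Gat stayed under 1 RPKM in the controls, with log2FC values of 1.91, 1.26 and 0.75 in the piwi comparison (adjusted p = 0.0703, 0.423 and 0.523).

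General neuron markers were read beside these genes. The 12 neuron markers summed to 79.0 and 104 CPM in the mutant, 77.0 and 56.4 CPM in its control, 73.2 and 75.8 CPM in the knockdown and 58.2 and 72.5 CPM in the RnpS1 control. Of the 10 tested, none passed in the piwi comparison, with a median of 1.46. At an unadjusted p under 0.05, 3 were higher and 0 lower, where 1778 and 1582 of all 10434 genes were. The pan-neuronal gene elav was at 8.83 and 16.8 CPM in the mutant and 6.71 and 2.66 CPM in its control, and the vesicle gene nSyb at 0.471 and 1.85 CPM and 0.508 and 0.169 CPM. No marker was at 0 in a whole group. The part of other cell types in these rises was not tested.

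Of the 6 genes of the cytoskeleton and small GTPases, 1 rose in the piwi mutant and none was called in the knockdown. RhoGAP102A (FBgn0259216) was at 5.87 and 6.95 CPM in the mutant and 1.28 and 0.803 CPM in its control (log2FC 2.46, SE 0.567, adjusted p = 0.0412). It was at 1.08 and 1.79 CPM in the knockdown and 0.772 and 1.63 CPM in that control, which overlapped. With 1 library left out the adjusted p of the rise lay between 0.0406 and 0.215. Arf102F, a GTPase of vesicle traffic, was at 159.9 and 153 CPM in the mutant and 111 and 129 CPM in its control (log2FC 0.23, SE 0.1404, adjusted p = 0.308). In the knockdown Arf102F was at 169 and 133 CPM against 142 and 123 CPM (log2FC 0.07, SE 0.1401, adjusted p = 0.852), and its sign turned when single libraries were left out. Ank, the adaptor Crk and the GTPase Arl4 had log2FC values of −0.19, 0.15 and 0.20 in the piwi comparison and −0.36, −0.30 and 0.12 in the RnpS1 comparison.

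bt (FBgn0005666), which encodes the giant muscle protein projectin, differed strongly between libraries of the same group. It was at 401 and 535 CPM in the mutant and 137 and 48.1 CPM in its control, without overlap, but did not pass (log2FC 2.18, SE 0.832, adjusted p = 0.125). The knockdown had it at 92.7 and 239 CPM and the RnpS1 control at 38.7 and 179.7 CPM (log2FC 0.49, SE 0.799, adjusted p = 0.804), with replicate 2 the higher in each. A list of 13 muscle markers summed to 1681 and 2980 CPM in the mutant, 815 and 540 CPM in its control, 635 and 1193 CPM in the knockdown and 558 and 1264 CPM in the RnpS1 control. Of the 13 markers 1 was called higher in the piwi comparison, where 6.21% of all genes were. In 12 of them both mutant libraries lay above both controls, where 45.6% of all genes did. CG1674, a gene of little known function, had the same order of libraries as bt within each group, at 22.3 and 31.8 CPM in the mutant and 4.19 and 1.86 CPM in its control (log2FC 3.002, SE 0.668, adjusted p = 0.0382), and at 4.23 and 8.88 CPM in the knockdown and 2.36 and 6.29 CPM in that control (log2FC 0.49, SE 0.621, adjusted p = 0.738). Ovaries are wrapped in a muscle sheath, and the part of muscle RNA in these values was not tested. Fat body markers summed to 353 and 995 CPM in the mutant and 73.3 and 56.5 CPM in its control. Of the 7 markers 3 were called higher, where 6.21% of all genes were. All 7 were positive, with a median log2FC of 2.80. They summed to 129 and 110.0 CPM in the knockdown and 91.8 and 153 CPM in its control. One of these 7 markers, apolpp, is itself a gene of chromosome 4. It made up the larger part of the sums in the piwi groups, at 199 and 506 CPM in the mutant and 55.8 and 45.5 CPM in its control. Haemocyte markers summed to 1027 and 1424 CPM in the mutant and 704 and 425 CPM in its control. Of the 8 markers 2 were called higher, where 6.21% of all genes were. In the piwi comparison 6 were positive and 2 negative, with a median of 3.85 and a lowest value of −0.38. Haemocyte markers summed to 424 and 677 CPM in the knockdown and 454 and 656 CPM in its control. Gut markers differed between libraries of a group, at 0.685 and 29.0 CPM in the mutant, 1.10 and 1.25 CPM in its control, 31.9 and 48.1 CPM in the knockdown and 194 and 0.454 CPM in the RnpS1 control, and none of the 8 tested was called in either comparison.

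**Figure D4:**
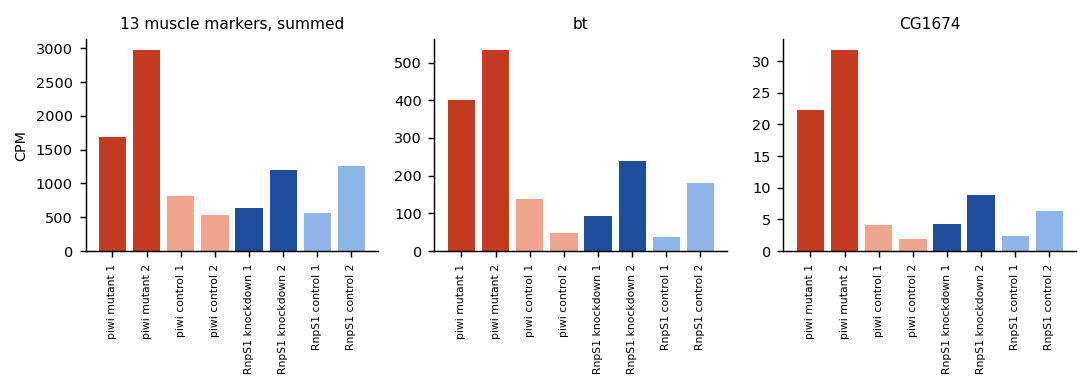
Summed level of 13 muscle markers (left) and levels of the chromosome 4 genes bt (middle) and CG1674 (right), in CPM, with 1 bar per library. In all 3 panels the mutant libraries are the highest, mutant replicate 2 is above mutant replicate 1, and replicate 2 is the higher in both RnpS1 groups.

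CG31997 (FBgn0051997), the other gene of little known function, was at 4.99 and 7.499 CPM in the mutant and 1.36 and 0.592 CPM in its control (log2FC 2.52, SE 0.567, adjusted p = 0.0391). It was at 3.22 and 1.82 CPM in the knockdown and 3.71 and 3.18 CPM in that control (log2FC −0.57, SE 0.532, adjusted p = 0.635), where the groups overlapped. Over fits that each left out 1 library the adjusted p of the rise in the mutant lay between 0.0454 and 0.179, and for CG1674 between 0.0340 and 0.196.

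Of the 3 kinase and signalling genes, 1 fell in the piwi mutant. Asator (FBgn0039908), a kinase of the tau-tubulin kinase family, was at 49.5 and 55.4 CPM in the mutant and 75.3 and 81.3 CPM in its control (log2FC −0.74, SE 0.158, adjusted p = 0.0353). Its level under RnpS1 knockdown was 58.5 and 46.5 CPM against 66.7 and 52.3 CPM, which overlapped (log2FC −0.30, SE 0.157, adjusted p = 0.368). As with gw, the piwi control was the highest of the 4 groups. When each library was left out in turn the adjusted p of the fall lay between 0.0311 and 0.165. The kinase gene Dyrk3 was at 101 and 99.3 CPM in the mutant and 80.5 and 73.1 CPM in its control (log2FC 0.22, SE 0.09900, adjusted p = 0.171), and Slip1 had log2FC values of −0.17 and −0.12.

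Of the 3 genes of metabolism and transport, 1 rose in the piwi mutant. yellow-h (FBgn0039896), of the family of the pigment gene yellow, was at 1.200 and 1.69 CPM in the mutant and 0.187 and 0.106 CPM in its control (log2FC 3.14, SE 0.603, adjusted p = 0.0270). In the knockdown it was at 0.501 and 0.381 CPM against 0.2396 and 0.289 CPM (log2FC 0.62, SE 0.551, adjusted p = 0.613). The mutant libraries were the only ones over 0.501 CPM, and with 1 library left out the adjusted p lay between 0.0405 and 0.163. ATPsynbeta was at 1351 and 1483 CPM in the mutant and 1370.2 and 1384 CPM in its control (log2FC −0.12, SE 0.124, adjusted p = 0.549), and this sign turned with library totals. In the knockdown ATPsynbeta was at 1373 and 1163 CPM against 1361 and 1514 CPM (log2FC −0.30, SE 0.124, adjusted p = 0.271). The zinc transporter gene Zip102B had log2FC values of 0.15 and −0.19.

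The controls of both experiments were not alike for all of these genes. With the piwi control as the base, 4 of the 51 genes were called higher in the RnpS1 control and none lower, where 3.56% of all genes were called, 1.56% higher and 1.99% lower. They were fuss, Kif3C (log2FC 2.30, SE 0.429, adjusted p = 0.0390), CaMKII (log2FC 0.77, SE 0.153, adjusted p = 0.0455) and Dyrk3 (log2FC 0.68, SE 0.0993, adjusted p = 0.0214). Dyrk3 was at 132 and 119 CPM and 131 and 118 CPM in the RnpS1 groups. In 17 genes both RnpS1 controls lay above both piwi controls and in 5 below, where 25.5% and 22.7% of all genes did. Both fuss and Kif3C were thus lowest in the piwi control, the group against which their rise in the mutant was measured. Of the other genes that rose, mGluR, CG11155, CG31997, fd102C and yellow-h also had both piwi controls below both RnpS1 controls, without being called. For mGluR these were 5.42 and 3.38 CPM against 12.1 and 10.8 CPM (log2FC 1.36, SE 0.311, adjusted p = 0.0634). The controls overlapped for Cadps, CG1674, RhoGAP102A and NfI. DESeq2 called 10 of the 51 higher and 1 lower in the RnpS1 control, where it called 1436 of 14299 genes in either direction. A fit of the controls alone called 1 of the 51, where it called 123 of 9070 genes. With 1 library left out at a time the adjusted p lay between 0.0602 and 0.177 for Kif3C, between 0.0393 and 0.183 for CaMKII and between 0.0307 and 0.103 for Dyrk3.

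Along the chromosome, genes called in the piwi comparison were mostly scattered among genes that did not pass. Among the 83 tested genes of chromosome 4, in the order of the annotation, 3 pairs of neighbours were both called. yellow-h and CG1674 both rose, RhoGAP102A and NfI both rose, and PlexB fell beside the noncoding gene CR32010, which rose (log2FC 3.32, SE 0.821, adjusted p = 0.0471). The first of these pairs and the second lie in a run of 6 neighbours, yellow-h, CG1674, dpr7, RhoGAP102A, NfI and Syt7, picked out after its values were seen. All 6 had positive log2FC values, from 1.26 to 3.14, 4 of them called, and none exceeded 4.19 CPM in a control library of the mutant. The other genes of the chromosome that rose were Rnf11, a ubiquitin ligase gene (log2FC 1.80, SE 0.272, adjusted p = 0.0170), apolpp, the lipoprotein of the fat body (log2FC 2.64, SE 0.477, adjusted p = 0.0235), and Cals, the calsyntenin gene (log2FC 0.82, SE 0.115, adjusted p = 0.0145). The noncoding gene CR43361 fell (log2FC −3.77, SE 0.449, adjusted p = 0.0118). In the knockdown 3 of the 32 other genes fell and none rose. These were PMCA, a calcium pump (log2FC −0.99, SE 0.146, adjusted p = 0.0329), CG31998 (log2FC −0.73, SE 0.125, adjusted p = 0.0477) and Taf3, a subunit of the basal transcription factor TFIID (log2FC −0.81, SE 0.137, adjusted p = 0.0458). The median of the 32 in the RnpS1 comparison was −0.26.

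**Figure D5:**
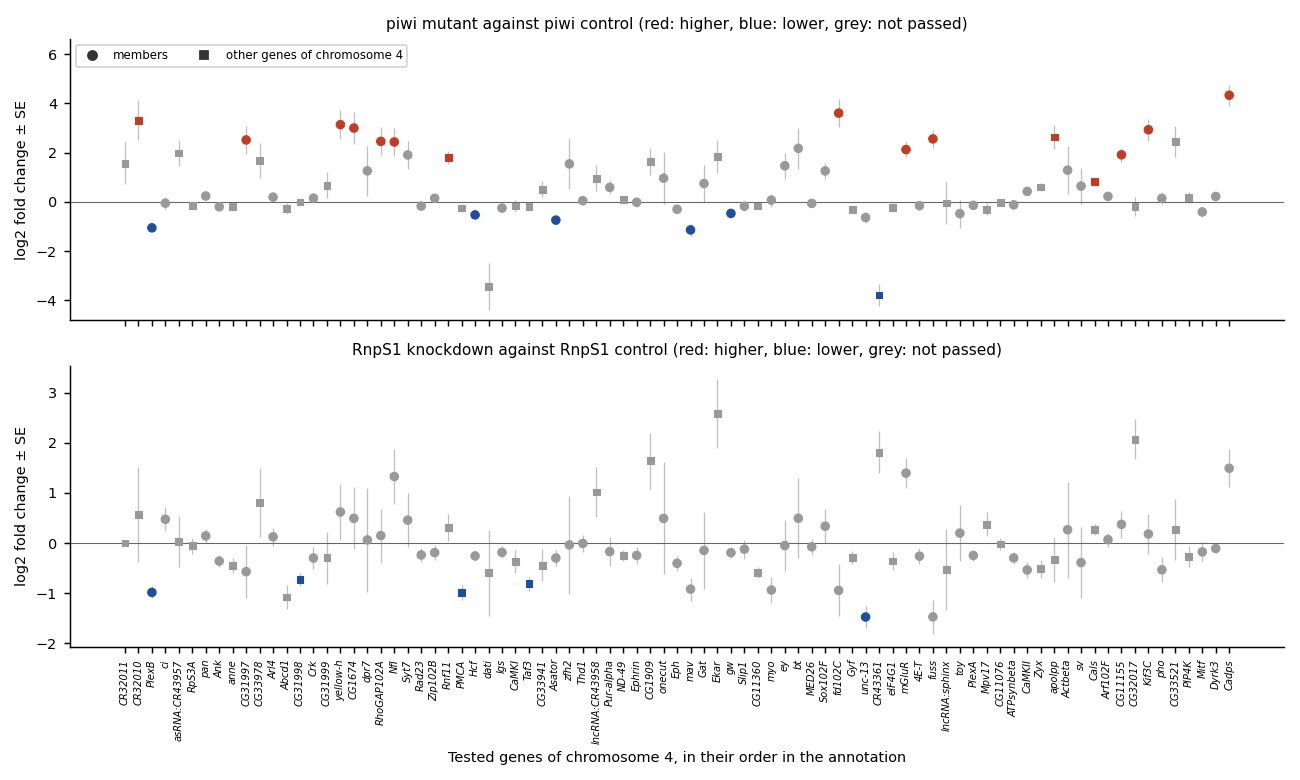
Log2 fold change ± SE of the 83 tested genes of chromosome 4 in the order of the annotation, above for the piwi mutant and below for the RnpS1 knockdown, with circles for the 51 genes, squares for the 32 others, and colour where a gene passed. Red points are spread along the chromosome in the upper panel, with 4 within the run from yellow-h to Syt7, and the 5 blue points of the lower panel are PlexB, CG31998, PMCA, Taf3 and unc-13.

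Most of the 51 genes have a long intron. The median of the longest annotated intron was 2500 bp, against 236 bp over 9963 tested genes with an annotation, and 42 of the 51 (82.4%) have an intron of 1000 bp or more, where 31.5% of those genes do. Their median exon length was 4385 bp against 1993 bp. The longest introns were those of Mitf (20518 bp), Sox102F (20173 bp) and Syt7 (19503 bp), and unc-13 has one of 12501 bp. PlexB has one of 2500 bp, the median of the group, and mav only one of 108 bp. Long introns also occur among the other genes of the chromosome. The longest was 17652 bp in CG32017 and 13493 bp in PMCA, but 478 bp in RpS3A, and the share over these other genes was not counted. Across the 51 genes, the rank correlation of longest intron and log2FC was 0.09 in the piwi comparison and 0.04 in the RnpS1 comparison. Across the 26 genes at 10 RPKM or more, it was −0.14 and −0.25. These are descriptions over genes that share libraries. A count per gene holds spliced and unspliced transcripts alike.

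Genes set in pericentric heterochromatin, the other place where active genes lie within such packing, gave a comparison. Of 19 such genes 2 rose (Snap25 and spok) and 1 fell (PolrMT) in the piwi mutant, where 6.21% and 4.78% of all genes did. Their median was −0.01. In the knockdown 1 rose (spok) and 1 fell (Gprk1), where 0.863% and 0.680% of all genes did. At an unadjusted p under 0.05, 9 of the 19 were lower, where 832 of all 10434 genes were, and the median was −0.37. spok, a gene of ecdysone synthesis, was at 2.699 and 5.91 CPM in the mutant and 0 and 0.0634 CPM in its control, and at 9.15 and 4.87 CPM in the knockdown and 0.0799 and 0.0206 CPM in that control. Gprk1, a kinase of G-protein coupled receptors, was at 72.3 and 54.7 CPM in the knockdown and 141 and 107 CPM in its control (log2FC −1.08, SE 0.178, adjusted p = 0.0440).

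Among 19 regulators of the fourth chromosome and of H3K9 methylation, 5 (26.3%) fell in the piwi mutant and none rose, where 4.78% of all genes, and 7.16% of those at or over 10 CPM in the RnpS1 control, fell. They were Su(var)3-9 (log2FC −0.93, SE 0.119, adjusted p = 0.0132), a methyltransferase of this mark, the HP1a partner genes Su(var)3-7 (log2FC −0.67, SE 0.119, adjusted p = 0.0229) and HP5 (log2FC −0.74, SE 0.162, adjusted p = 0.0367), egg (log2FC −0.41, SE 0.0959, adjusted p = 0.0419) and piwi itself. The 26.3% thus includes the mutated gene, whose fall is no separate result. Pof was at 63.7 and 53.8 CPM in the mutant and 59.1 and 73.5 CPM in its control (log2FC −0.33, SE 0.165, adjusted p = 0.212), and the gene for HP1a at 238 and 192 CPM and 192 and 226 CPM (log2FC −0.12, SE 0.133, adjusted p = 0.562). In the knockdown piwi fell and no other gene of the list was called, with egg at −0.20 and Pof at −0.28. Medians of the list were −0.25 and −0.18.

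Transcripts of the transposon hoppel, a DNA element common on the dot chromosome, were at 268 and 260 CPM in the mutant and 161 and 109 CPM in its control (log2FC 0.81, SE 0.251, adjusted p = 0.0257 over 123 families), where 61.0% of families rose. In the knockdown the family was at 81.9 and 95.4 CPM against 59.6 and 91.3 CPM (log2FC 0.12, adjusted p = 0.850), where 17.9% of families rose. INE-1, the other abundant remnant there, stood at 0.57 (adjusted p = 0.0525) and 0.29 (adjusted p = 0.593). Between the controls, with the piwi control as the base, the log2FC was −0.86 for hoppel (adjusted p = 0.0428) and −1.29 for INE-1 (adjusted p = 0.00967). Family counts are not tied to a place in the genome, so copies on chromosome 4 could not be told from others.

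Partners of the 51 genes in their pathways were counted in 7 lists, where 6.21% of all genes rose and 4.78% fell in the piwi mutant. Of 11 genes of the activin and BMP pathway, in which mav, myo and Actbeta serve, 1 fell in the piwi mutant, the receptor gene put (log2FC −0.49, SE 0.116, adjusted p = 0.0428). Of 10 Hedgehog pathway genes beside ci, 2 (20.0%) fell, the coreceptor gene ihog (log2FC −0.66, SE 0.136, adjusted p = 0.0321) and disp, which releases the ligand (log2FC −0.55, SE 0.0982, adjusted p = 0.0227). Of 13 Wnt pathway genes beside pan and lgs, the coreceptor gene arr fell (log2FC −0.56, SE 0.105, adjusted p = 0.0252). Of 11 Polycomb group genes beside pho, 3 (27.3%) fell: Sfmbt, the direct partner of pho (log2FC −0.61, SE 0.105, adjusted p = 0.0213), esc (log2FC −0.58, SE 0.136, adjusted p = 0.0424) and Asx (log2FC −0.72, SE 0.153, adjusted p = 0.0351). Of 9 partners of gw and 4E-T, 8 were tested and the deadenylase gene twin fell (log2FC −0.86, SE 0.128, adjusted p = 0.0168), while cup was listed at 0 in every library. Of 10 semaphorin and guidance genes, NetB rose (log2FC 1.59, SE 0.381, adjusted p = 0.0434), and the semaphorin genes Sema2a and Sema1a, whose products bind plexins, stood at 0.03 and −0.17 in the piwi comparison and −0.52 and −0.13 in the RnpS1 comparison without passing. Of 9 other ATP synthase genes ATPsynF rose (log2FC 0.49, SE 0.0939, adjusted p = 0.0270). In the knockdown no gene of these 7 lists was called, and their medians lay between −0.21 and −0.02.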

How the data were processed

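For 8 ovary libraries the authors deposited raw read counts per gene and per transposon family, not normalized and not pooled. Per the labels' protocols, RNA was extracted with Trizol, depleted of ribosomal RNA and sequenced from strand-specific libraries. The submitters' processing notes name TopHat2 2.0.9 and HTSeq 0.5.3p9, along with CASAVA (1.8, 1.8.2) and DESeq; of builds they list dm3 and BDGP5. Reads aligned to several places stand in a line of their own in the deposited files, outside the gene counts. That line held 66.0% and 64.6% of the total in the piwi mutant and 51.4% and 43.2% in its control. It held 65.6% and 50.3% in the RnpS1 knockdown and 44.9% and 65.3% in its control. The part of this difference in the gene values was not tested.

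The quasi-likelihood test of edgeR 4.0.16, under R 4.3.3, was run on a single model of all 8 libraries with a term per group, over the 10434 genes kept by filterByExpr together with 123 transposon families. TMM factors came from gene counts, and SE from the F statistic. p-values were adjusted over genes and, separately, over families. With 2 libraries a group an exact permutation test cannot go below 0.333, so none was used. CPM is over the sum of gene rows. RPKM uses merged exons of a later annotation (BDGP6), which names 15002 of the 15682 identifiers; since its build differs, no coordinates are given. The procedure was tested on simulated counts with known changes.

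The 51 genes, the lists and the alternatives were chosen with earlier results of these data known. Listed names not found in the count tables under current identifiers, such as vas and nos, were left out. That left 8 of 10 germline markers, 19 of 23 pericentric genes and 9 of 12 partners of gw and 4E-T. Several other lists lost a single name. The roles of the genes and the level limits were set after values were seen. Values in every library are given for the called genes, the 5 with the highest RPKM, and the gene of the largest change in each role. Alternatives were library totals in place of TMM, DESeq2 1.42.0, no filter, a mean of 1 CPM or more, a fit of the compared groups alone, the replicate number as a block, and each library left out.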

Additional observations from a re-analysis of the deposited data

Results flagged for a closer look

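fuss is listed here because its change in the RnpS1 knockdown differed from its change in the piwi mutant by a test of the difference itself (log2 −4.04, SE 0.495, adjusted p = 0.0232). It was at 18.4 and 18.9 CPM in the mutant, 3.500 and 2.18 CPM in its control, 13.1 and 8.201 CPM in the knockdown and 32.5 and 22.03 CPM in the RnpS1 control. The 2 controls differed by 3.24 on the log2 scale (adjusted p = 0.0126), which is of the order of the changes themselves. The difference lay between −4.45 and −3.73 with 1 library left out at a time, and its adjusted p between 0.0496 and 0.0982. The difference between genotypes of the controls and the difference between experiments cannot be told apart.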

How the results depend on the processing

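Called genes kept their direction under every alternative run. The number of the 51 genes called higher in the piwi mutant, 11, was 6 with the replicate block and between 1 and 10 with 1 library left out. The number called lower, 5, was 2 with library totals, 1 with the replicate block and between 0 and 5 with 1 library left out. In the knockdown the number called lower, 2, was 8 with DESeq2, 0 in a fit of the compared groups alone and between 0 and 2 with 1 library left out, and the number called higher, 0, was 2 with DESeq2. For the difference between the comparisons, 1 gene was called lower, 10 with DESeq2, 3 with no filter, 3 with the crossed replicate block and between 0 and 1 with 1 library left out. Between the controls 4 were called higher, 10 with DESeq2, 1 in a fit of those groups alone and between 0 and 3 with 1 library left out, and DESeq2 called 1 lower where edgeR called 0. Over 14299 genes DESeq2 called 1019 in the RnpS1 comparison, 799 for the difference between the comparisons and 1436 between the controls, in either direction. The main fit called 161, 67 and 371 of 10434 genes there. The median log2 fold change of the 51 genes in the piwi comparison, 0.22, was 0.38 with library totals and between 0.21 and 0.35 with 1 library left out. That of the difference, −0.47, was −0.31 with a mean of 1 CPM or more and between −0.71 and −0.29 with 1 library left out, and that between the controls, 0.19, was between 0.092 and 0.33. The RnpS1 median stayed between −0.24 and −0.06 with 1 library left out.

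Among genes that did not pass, signs turned for 4E-T (0.0079) and ATPsynbeta (0.042) in the piwi comparison with library totals, for RnpS1 in the piwi comparison without mutant replicate 1 (−0.057) and without control replicate 2 (−0.03), and in the RnpS1 comparison for Arf102F without knockdown replicate 1 (−0.10) and without control replicate 2 (−0.04) and for bt without knockdown replicate 2 (−0.37) and without control replicate 1 (−0.23), where bt was at 1.99 without control replicate 2. The cause of these shifts was not tested.

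Replicate numbers in the titles are shared between groups, but no label says that a number marks a batch. Deviations from the group means correlated across 10434 genes at −0.16 between the piwi mutant and its control and at 0.19 between the knockdown and its control. With the replicate block all genes called in the piwi comparison went from 1147 to 624 and those among the 51 from 16 to 7. In the RnpS1 comparison all calls went from 161 to 64, and 2 of the 51 genes were called in both fits. The crossed pairing, added after the data were seen, gave 2463 calls and 21 of the 51 genes in the piwi comparison. With 2 libraries a group, a gene that did not pass is not shown to be alike between groups.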
